A study of Mus musculus with 30 samples.

Results

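The genes described here are the 35 genes of the autophagy and LC3 conjugation machinery that were looked up by symbol in a table of read counts of 25611 genes, and all 35 were found there. They were measured by RNA sequencing in dendritic cells that had been grown from mouse bone marrow with FLT3L, the growth factor that drives conventional and plasmacytoid dendritic cells. The cells came from Rubcn knockout (KO) or wild-type (WT) mice. In each genotype they were left untreated, or received for 30 min or 4 h either ovalbumin (OVA, a soluble protein antigen) or dying cells of Jurkat, an established human leukaemia line of T-cell origin. Each of the 10 groups (WT or KO, by untreated, OVA 30 min, Jurkat 30 min, OVA 4 h and Jurkat 4 h) held 3 libraries, and all groups shared the FLT3L culture. The labels do not say whether the 3 libraries of a group came from separate mice, so the p-values measure the spread between these libraries, which may be technical. The sources used here give neither the knockout allele nor the age or sex of the mice.

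Autophagy encloses cytoplasm in a double membrane that is delivered to lysosomes. The ULK1 kinase complex starts it, membrane and lipid-transfer proteins build the phagophore, and ubiquitin-like reactions join the ATG8 proteins (the LC3 and GABARAP families) to phosphatidylethanolamine, where cargo receptors bind them. The same conjugation enzymes put LC3 on single-membrane phagosomes in LC3-associated phagocytosis, a pathway used by phagocytes that take up dying cells. Rubicon, the protein of Rubcn, is known to promote LC3-associated phagocytosis and to restrain canonical autophagy, and the comparison of KO with WT cells asks what its loss changes in the response to a dying cell and to a soluble antigen.

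All 35 members passed the filter on low counts, as did 14808 genes in all. Depth was 9.73 to 51.6 M counts per library (M, counts in units of 1e+06) with a median of 44.9 M, and the shallowest library was OVA 30 min KO replicate 3. The 6 libraries of 4 h Jurkat cells stood apart in composition, with TMM normalization factors of 0.765 to 0.842 against 1.03 to 1.07 in the other 24. Levels are CPM, the counts per M counts after TMM scaling of the library sizes. Rubcn itself was lower in KO in each condition with no overlap of libraries, at 70.4 to 75.8 CPM in untreated KO and 95.6 to 104.6 CPM in untreated WT cells (log2 difference -0.44, edgeR adjusted p = 1.69e-07), and at 44.4 to 50.5 against 56.1 to 62.3 CPM after 4 h of Jurkat cells. Most Rubcn reads thus remained in KO libraries, and the counts check the genotype labels only in direction. Of the 6 dendritic cell markers none was at 0 in any group, and their summed level ran from 17103 to 28218 CPM over the group means.

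The promoters of 4 members are printed because these genes mark the extremes of the data: Sqstm1, Optn and Vmp1 are the 3 members that rose most after Jurkat cells, and Atg3 is the member whose window alone held the longer E-box, TCACGTGA. Sequences are the 250 bases before the RefSeq start on GRCm38.p6, 5′ to 3′ on the gene's strand. Capitals mark matches to CACGTG, the E-box core read by MiT/TFE factors such as TFEB, to its longer form TCACGTGA, or to TGACNNNGC, the antioxidant response element core, searched on both strands. TCACGTGA contains CACGTG, so those matches overlap.
Sqstm1 promoter, chr11:50210821-50211070, minus strand: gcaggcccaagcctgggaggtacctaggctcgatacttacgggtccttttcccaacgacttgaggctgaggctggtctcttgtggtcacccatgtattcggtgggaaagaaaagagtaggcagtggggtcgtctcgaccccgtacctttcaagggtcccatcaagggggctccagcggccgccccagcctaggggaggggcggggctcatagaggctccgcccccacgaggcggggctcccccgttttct
Optn promoter, chr2:5064118-5064367, minus strand: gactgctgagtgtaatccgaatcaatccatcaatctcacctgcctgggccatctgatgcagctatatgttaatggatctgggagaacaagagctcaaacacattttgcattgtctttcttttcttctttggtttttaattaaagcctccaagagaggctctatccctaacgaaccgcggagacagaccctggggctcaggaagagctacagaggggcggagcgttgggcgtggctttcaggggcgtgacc
Vmp1 promoter, chr11:86683837-86684086, minus strand: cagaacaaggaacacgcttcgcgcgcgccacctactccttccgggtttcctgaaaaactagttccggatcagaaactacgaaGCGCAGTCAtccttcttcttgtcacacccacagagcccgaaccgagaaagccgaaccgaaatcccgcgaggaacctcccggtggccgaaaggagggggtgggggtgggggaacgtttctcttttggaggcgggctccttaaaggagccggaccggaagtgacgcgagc
Atg3 promoter, chr16:45158579-45158828, plus strand: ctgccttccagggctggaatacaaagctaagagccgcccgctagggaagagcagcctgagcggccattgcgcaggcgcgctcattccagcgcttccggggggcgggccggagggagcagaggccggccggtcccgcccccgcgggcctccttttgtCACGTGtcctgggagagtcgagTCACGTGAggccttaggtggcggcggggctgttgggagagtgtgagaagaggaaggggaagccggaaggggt
In windows that add the first 50 bases of the gene, Sqstm1 and Optn held none of the 3 motifs, the printed Vmp1 window held TGACNNNGC once, and the Atg3 window held CACGTG and TCACGTGA. RefSeq windows matched 31 members with 39 promoters. CACGTG was in 3 of the 39 (Atg3, Atg5, Atg7) and in 7.15% of all 32851 promoters, TCACGTGA in Atg3 alone and in 0.974% of all, and TGACNNNGC in 7 of 39 (Atg13, Map1lc3b, Tax1bp1, Ulk2, Vmp1) and in 12.4% of all. These 7 windows belong to 5 of the 31 members, because Vmp1 has further windows at other RefSeq starts that also held TGACNNNGC. A match describes letters in the window and nothing more.

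Compared per kilobase of exon in untreated WT cells, Gabarap stood highest of the members at 215 ± 2.91 CPM per kb (SD, n = 3), followed by Sqstm1 at 86.7 ± 0.722, Tax1bp1 at 77.0 ± 1.82 and Atg3 at 49.7 ± 1.35. These 4 did not overlap in their libraries. The lowest were Optn at 1.83 ± 0.105, Atg4a at 1.29 ± 0.107 and Wipi1 at 0.969 ± 0.115 CPM per kb. The Atg4a row needs care: the deposited interval, chr3:103643953-103646068, is on a chromosome other than the X, where RefSeq places Atg4a, and holds the intronless copy Atg4a-ps. Its 2.73 ± 0.226 CPM in untreated WT cells are those of the copy's interval. Lengths are the union of all exons of protein-coding GENCODE transcripts, such as 5182 bases for Map1lc3b and 1112 for Map1lc3a. They can exceed a single transcript and may differ from those the authors counted on. Ranks, shares and ratios between genes per kilobase depend on them.

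KO and WT cells differed in few members and by little, except after 4 h of Jurkat cells. In untreated cells 2 members were higher in KO and 0 lower (edgeR adjusted p under 0.05; 5 members had an unadjusted p under 0.05), or 5.71% of members against 9.97% of all tested genes, of which 6% were higher and 3.97% lower. After OVA for 30 min 1 member was higher and 1 lower, with 12.4% of all genes called (6.25% higher, 6.13% lower). After Jurkat cells for 30 min 1 was higher and 2 lower, with 9.25% of all genes called (5.58% higher, 3.67% lower). After OVA for 4 h 1 was higher and 1 lower, with 12.6% of all genes called (6.22% higher, 6.35% lower). After Jurkat cells for 4 h 9 were higher and 6 lower, with 22.9% of all genes called (9.37% higher, 13.5% lower). Of the 35 members, 16 were called in no condition, 16 in 1, 2 in 2 and only Map1lc3a in 4. The 95% intervals of the KO to WT difference lay within 0.5 log2 of 0 for 34, 34, 34, 35 and 34 members in the order of conditions above, Optn (both 30 min conditions and untreated) and Wipi1 (Jurkat 4 h) being the exceptions. Scaling to total counts, which shifts the median of all genes by 0.07 log2 after 4 h of Jurkat cells, changed the split of that condition from 9 higher and 6 lower to 16 and 0, and a fit of the compared groups alone gave 7 and 0. The shares of all genes above belong to the fit of all libraries with TMM scaling and not to these 2 splits. Under all 3 scalings run, Atg16l2, Wipi1, Wipi2, Ulk1 and Gabarapl1 were higher in KO and no member was called lower under all 3.

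Markers of other cells also differed by genotype. The 7 basophil or mast cell markers summed to 56.6 to 87.5 CPM in untreated KO against 22.2 to 28.6 CPM in untreated WT libraries, and the 6 stromal markers to 686 to 862 against 537 to 617 CPM, with no marker at 0 in any group. The 6 neutrophil markers overlapped untreated. They were lower in KO without overlap in the other conditions, at 99.3 to 106.0 against 126.0 to 133.4 CPM after 4 h of Jurkat cells. The 5 macrophage markers were higher in untreated KO, at 2835 to 3305 against 2609 to 2803 CPM, and overlapped in the other conditions. The 3 B cell markers overlapped untreated and at Jurkat 30 min and were otherwise higher in KO without overlap. Marker sums of dendritic cell subsets differed too, though not for each subset in each condition. The 5 plasmacytoid markers summed to 1847 to 1972 CPM in untreated KO against 2107 to 2158 CPM in untreated WT, and to 2390 to 2629 against 2935 to 3410 CPM after 4 h of Jurkat cells, and were lower in KO without overlap in all 5 conditions. The 4 markers of type 2 conventional cells summed to 1513 to 1645 against 1424 to 1474 CPM untreated and to 948 to 1017 against 795 to 849 CPM after 4 h of Jurkat cells, and overlapped only at Jurkat 30 min. The 4 markers of type 1 conventional cells overlapped untreated, at 419 to 436 CPM in KO against 429 to 446 CPM in WT, and at 30 min of either treatment. At 4 h they were lower in KO without overlap, at 405 to 439 against 475 to 504 CPM after Jurkat cells. The part of these lists in the differences of the members was not tested. In bulk libraries fewer cells of a type and less RNA per cell cannot be told apart.

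**Figure D1:**
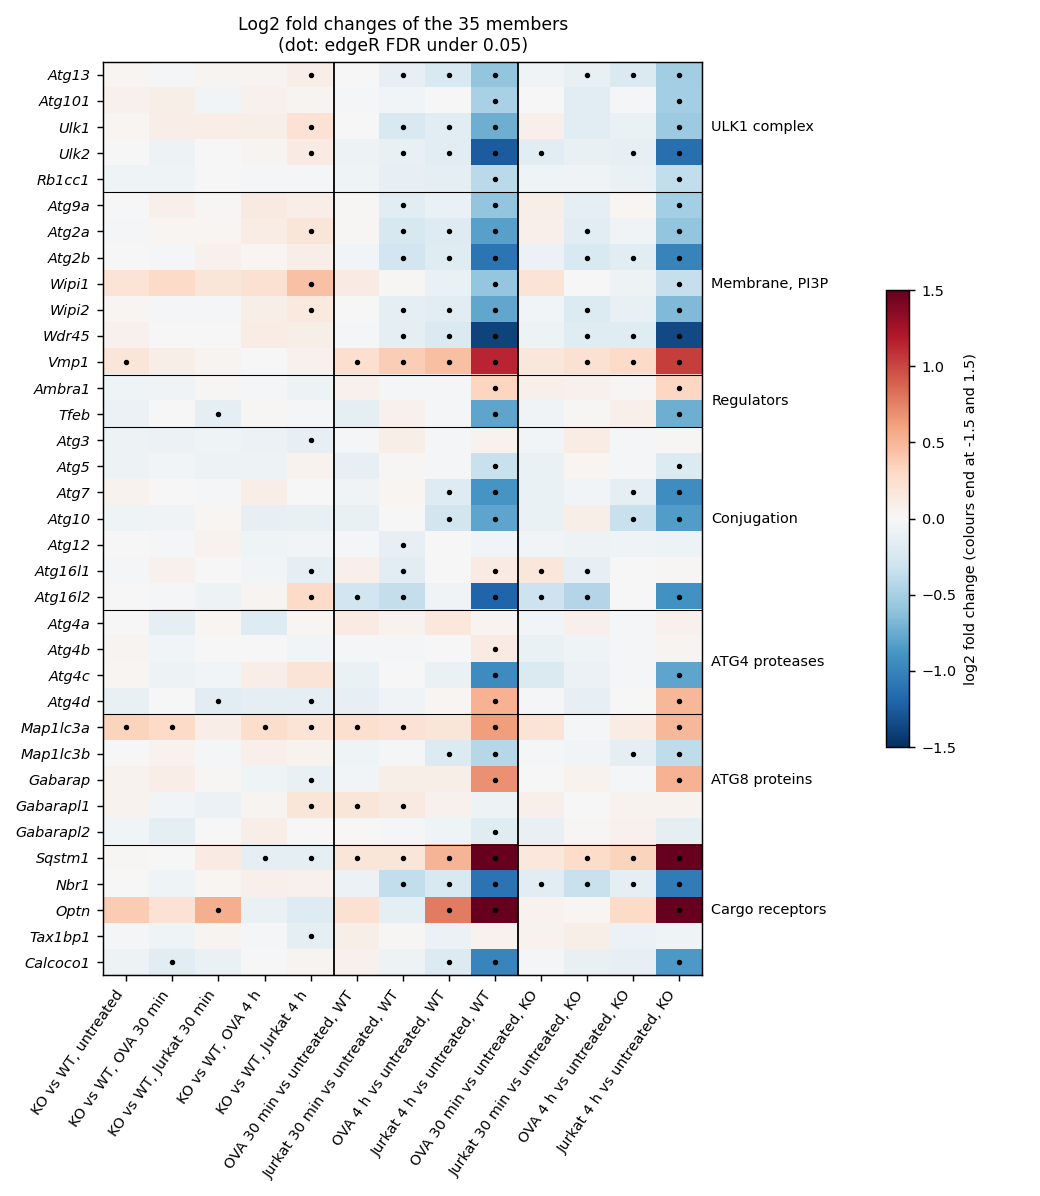
Log2 fold change of the 35 members (rows, grouped by role) in the 5 KO to WT comparisons and in each treatment against untreated cells of WT and KO. Red is higher and blue lower, colours end at -1.5 and 1.5, and dots mark an edgeR adjusted p under 0.05. The column of 4 h Jurkat cells holds 30 dots in WT and 27 in KO, and the untreated KO to WT column holds 2.

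Most members changed after 4 h with Jurkat cells. In WT cells 9 members rose and 21 fell against untreated, while 79.5% of all genes were called (38.9% higher, 40.6% lower). In KO cells 7 rose and 20 fell, while 78.5% of all genes were called (37.5% higher, 41% lower). All 27 members called in KO were called in WT in the same direction. The members' median change was -0.43 log2 in WT and -0.37 in KO, where the medians of all tested genes were -0.02 and -0.03. Fewer members moved in the other treatments. After 30 min of Jurkat cells 4 members rose and 12 fell in WT, with 28.7% of all genes called (14.2% higher, 14.5% lower), and 2 rose and 8 fell in KO, with 17% called (8.72% higher, 8.26% lower). OVA at 30 min gave 4 rises and 1 fall in WT, with 10.7% of all genes called (5.51% higher, 5.15% lower), and 1 rise and 3 falls in KO, with 3.77% called (1.88% higher, 1.88% lower). OVA at 4 h gave 3 rises and 12 falls in WT, with 23.5% of all genes called (11.9% higher, 11.7% lower), and 2 rises and 8 falls in KO, with 11.6% called (5.94% higher, 5.69% lower). The OVA and Jurkat comparisons share their untreated libraries. Set against each other directly with the genotypes averaged, Jurkat cells gave 4 higher and 11 lower members than OVA at 30 min, with 29.9% of all genes called (15.5% higher, 14.4% lower). At 4 h they gave 11 higher and 22 lower, with 82.6% called (39.4% higher, 43.2% lower). With total-count scaling the 4 h split was 5 and 28, and the median change of all genes was -0.40 log2. The shares just given are from TMM scaling and do not apply to that split.

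The scaling matters at 4 h of Jurkat cells, because total-count scaling lowers the median of all genes by 0.42 log2 in WT and 0.37 in KO. With it 6 members rose and 28 fell in each genotype. Shares of all genes called with this scaling are not given here, and those printed for 4 h of Jurkat cells are from TMM scaling. Atg4d, Map1lc3a, Gabarap, Sqstm1, Optn and Vmp1 rose under each of the 3 scalings in both genotypes and 20 members fell under each, while Atg4b and Atg16l1 in WT turned from higher to lower. Marker sums moved with the 4 h Jurkat groups as well. Markers of type 2 conventional cells went from a mean of 1451 to 823 CPM in WT and from 1575 to 973 CPM in KO, plasmacytoid markers from 2133 to 3101 CPM in WT and from 1889 to 2540 CPM in KO, and the 6 general dendritic cell markers from 17103 to 28218 CPM in WT. The 17 T-lineage genes summed to 76.2 CPM in untreated WT, 133.4 at 30 min and 216.4 at 4 h of Jurkat cells, and in KO to 80.2, 111.5 and 165.3 CPM. The 10 of them with less than 1 CPM in untreated cells summed to 2.39, 38.7 and 101 CPM in WT and to 2.99, 23.9 and 69.1 CPM in KO. The sources used here do not say how human reads were handled, and the part of these marker lists in the changes was not tested.

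After 4 h of Jurkat cells all 5 genes of the ULK1 complex, which starts autophagy, fell in both genotypes, with medians of -0.59 in WT and -0.52 in KO. Of all genes, 40.6% were called lower in WT and 41% in KO. Ulk2 (Entrez 29869, mm10 chr11:61775598-61855092, minus strand), a kinase related to ULK1, fell most. It stood at 74.8, 72.4 and 70.1 CPM in untreated WT and at 29.8, 32.4 and 29.4 CPM after Jurkat cells, and at 77.4, 70.4 and 70.9 against 33.9, 32.1 and 33.7 CPM in KO. The treated libraries lay below each untreated one, and the fall was 1.25 ± 0.04 on the log2 scale in WT (SE, edgeR adjusted p = 7.66e-21). Ulk1, the kinase itself, went from 42.8, 41.8 and 46.6 to 27.2, 25.5 and 26.2 CPM in WT (log2 -0.73 ± 0.06, adjusted p = 1.78e-11) and stayed higher in KO at 32.2, 29.4 and 30.0 CPM (KO to WT 0.21 ± 0.07, adjusted p = 0.0195). That last difference lost its call without KO replicate 1 (adjusted p = 0.0998), WT replicate 2 (0.0841) or WT replicate 3 (0.0517). The scaffold subunits fell by less, with Atg13 at -0.59 ± 0.03, Atg101 at -0.48 ± 0.06 and Rb1cc1 (FIP200) at -0.41 ± 0.07 in WT. The complex also fell in part under OVA: Atg13, Ulk1 and Ulk2 were lower at 4 h in WT, Atg13 most, from 56.1, 58.1 and 59.7 to 48.9, 48.9 and 50.2 CPM (log2 -0.23 ± 0.03, adjusted p = 2.89e-06).

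Among the 7 genes of membrane supply, lipid transfer and PI3P binding, 6 fell after 4 h of Jurkat cells in both genotypes and Vmp1 rose. The share of all genes called lower was 40.6% in WT and 41% in KO. Wdr45 (Entrez 54636, mm10 chrX:7722220-7728201, plus strand), also called WIPI4, a PI3P-binding partner of the ATG2 lipid-transfer proteins, had the largest fall of all members. Its level was 26.2, 27.2 and 28.1 CPM in untreated WT and 10.6, 10.2 and 10.4 CPM after Jurkat cells, and 28.0, 27.9 and 29.3 against 10.6, 11.8 and 10.9 CPM in KO. The log2 change was -1.39 ± 0.05 in WT (edgeR adjusted p = 2.73e-20) and -1.36 ± 0.05 in KO, with no overlap of libraries. In exons, 49.2% of the Wdr45 length is shared with another annotated gene on the same strand, so its reads could be split by the counting. The same holds for 41.8% of the Atg9a length. The lipid-transfer genes themselves fell too, Atg2b by 1.10 ± 0.05 and Atg2a by 0.81 ± 0.06 on the log2 scale in WT, as did Wipi2 (-0.78 ± 0.04), Atg9a, the membrane scramblase (-0.59 ± 0.06), and Wipi1 (-0.58 ± 0.11).

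The fall of Atg2b was present by 30 min, when its WT libraries stood at 59.5, 62.0 and 66.8 CPM against 73.3, 75.1 and 81.3 CPM in untreated cells (log2 -0.29 ± 0.05, edgeR adjusted p = 3.82e-05). Set against OVA at 30 min with the genotypes averaged, Atg2a was lower by 0.25 ± 0.04 and Ulk1 by 0.23 ± 0.04 on the log2 scale, with adjusted p = 4.61e-05 and 0.000169. Wipi1 carried the largest KO difference of 4 h Jurkat cells. Its libraries read 3.67, 3.95 and 3.68 CPM in KO and 2.83, 2.78 and 2.67 CPM in WT, without overlap (log2 0.44 ± 0.12, adjusted p = 0.00583). In the other 4 conditions the Wipi1 difference was 0.19 to 0.28 log2 and did not pass the test.

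Vmp1 (Entrez 75909, mm10 chr11:86584262-86684000, minus strand), an endoplasmic reticulum scramblase needed to form the phagophore, rose in WT under each of the 4 treatments. WT libraries read 60.5, 61.9 and 56.4 CPM untreated, 77.4, 69.3 and 66.5 after OVA for 30 min, 83.8, 75.3 and 71.1 after Jurkat cells for 30 min, 84.4, 82.5 and 78.4 after OVA for 4 h, and 131.1, 134.0 and 129.8 after Jurkat cells for 4 h. All treated libraries were above all untreated ones. The log2 changes were 0.25 ± 0.06, 0.36 ± 0.06, 0.46 ± 0.06 and 1.14 ± 0.06 (edgeR adjusted p = 0.00396, 2.15e-05, 6.72e-07 and 3.89e-17). The first of these lost its call without WT OVA 30 min replicate 1 (0.19, adjusted p = 0.0547). In KO Vmp1 rose in 3 of the 4 treatments, to 131.2, 140.2 and 142.7 CPM after 4 h of Jurkat cells. Untreated KO libraries started higher, at 69.0, 65.9 and 67.1 CPM (0.18 ± 0.06, adjusted p = 0.0481), a call that was lost on leaving out any 1 of the 6 libraries (adjusted p 0.0565 to 0.211).

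**Figure D2:**
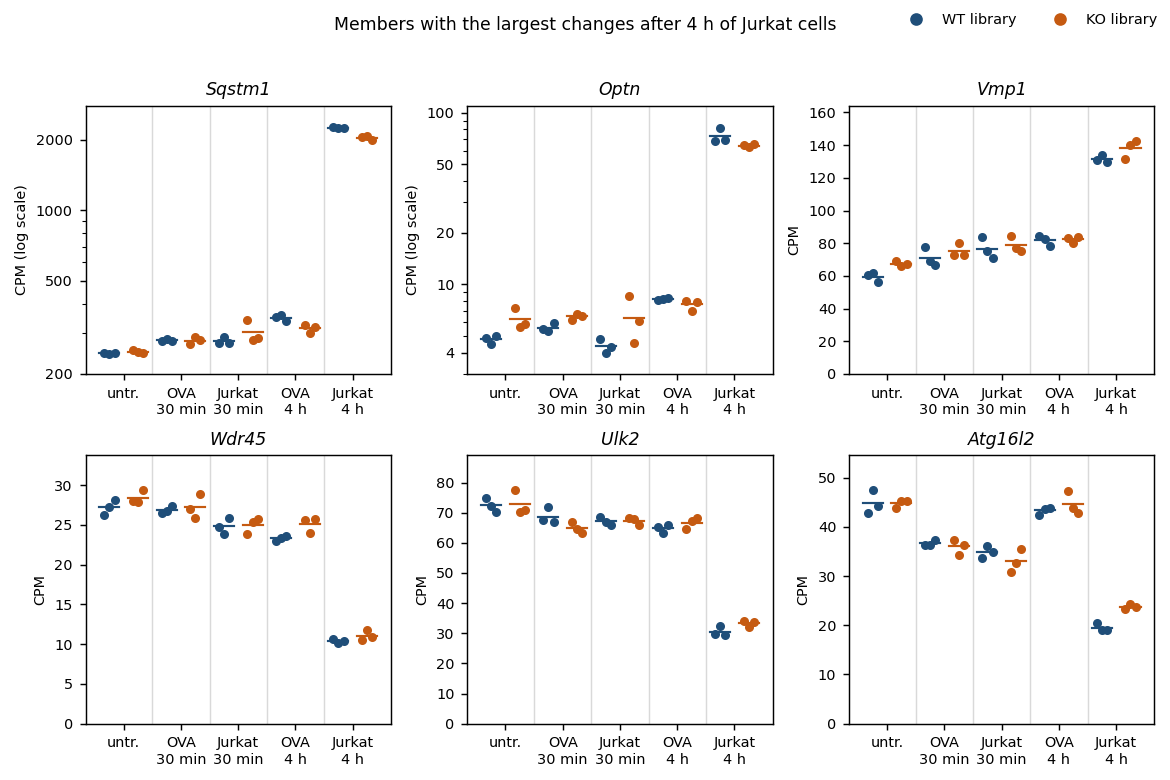
CPM of 6 members in each library (points, with the mean of 3 as a bar) for WT and KO in 5 conditions, where untr. is untreated. Sqstm1 and Optn are on a log axis and the others start at 0. Sqstm1 sits at 242 to 254 CPM untreated and at 1992 to 2274 CPM after 4 h of Jurkat cells, and Wdr45, Ulk2 and Atg16l2 are lowest there in both genotypes.

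The 2 regulators moved apart after 4 h of Jurkat cells. Tfeb encodes a transcription factor that activates lysosomal and autophagy genes. Its libraries read 63.5, 63.4 and 64.5 CPM in untreated WT and 37.2, 37.3 and 36.2 CPM after Jurkat cells, and 58.0, 60.3 and 61.8 against 37.7, 32.5 and 38.3 CPM in KO. It fell by 0.79 ± 0.05 on the log2 scale in WT (edgeR adjusted p = 2.01e-15) and by 0.73 ± 0.05 in KO, and was not called under the other 3 treatments. After 30 min of Jurkat cells KO libraries (58.8, 61.2 and 62.1 CPM) lay below WT (64.0, 66.8 and 69.5 CPM; log2 -0.14 ± 0.04, adjusted p = 0.0485), a call kept in 1 of 6 fits without 1 library. It was also lost with total-count scaling (edgeR adjusted p = 0.0734), with no filter on low counts (0.0627), with the compared groups alone (0.0823) and with the replicate block (0.0514). Ambra1, a BECN1 partner and ligase adaptor, rose by 0.33 ± 0.04 in WT and 0.31 ± 0.04 in KO, but with total-count scaling its WT change was -0.08 with adjusted p = 0.0649.

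Of the 7 conjugation genes, 1 rose and 4 fell in WT after 4 h of Jurkat cells, and 0 rose and 4 fell in KO. Of all genes, 38.9% were called higher and 40.6% lower in WT, and 37.5% higher and 41% lower in KO. Atg7, the E1-like enzyme, went from 51.9, 55.3 and 55.2 to 29.3, 28.5 and 30.1 CPM in WT (log2 -0.88 ± 0.05). Atg10, the E2-like enzyme that joins ATG12 to ATG5, had a log2 change of -0.80 ± 0.09. Atg5 fell by 0.33 ± 0.05 on the log2 scale. Atg3, the E2-like enzyme of the ATG8 branch, stood at 105.4, 100.6 and 100.5 against 104.8, 112.1 and 102.0 CPM (log2 0.06, adjusted p = 0.194), and Atg12 changed by -0.04 (adjusted p = 0.365). With total-count scaling both were called lower (log2 -0.35 and -0.44), and with DESeq2 size factors Atg3 was called higher (0.12, adjusted p = 0.00766). Atg10 was also lower after 4 h of OVA in WT, going from 6.92, 7.65 and 6.90 to 6.34, 5.2 and 6.24 CPM (log2 -0.27 ± 0.09, adjusted p = 0.022), and this call was lost without OVA replicate 2 (adjusted p = 0.164) or untreated replicate 2 (0.113).

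The paralogs Atg16l1 and Atg16l2 differed. ATG16L1 directs the ATG12-ATG5 conjugate to the membrane that receives LC3, and ATG16L2 is its close relative. Atg16l2 (Entrez 73683, mm10 chr7:101289616-101302088, minus strand) was 42.9, 47.4 and 44.2 CPM in untreated WT, fell already by 30 min to 36.2, 36.4 and 37.2 CPM after OVA and to 33.7, 36.0 and 34.9 CPM after Jurkat cells, and stood at 42.4, 43.7 and 43.9 CPM after 4 h of OVA and at 20.4, 19 and 19 CPM after 4 h of Jurkat cells. The log2 changes were -0.29 ± 0.05, -0.36 ± 0.05, -0.05 (adjusted p = 0.51) and -1.20 ± 0.05 in this order, the other adjusted p from edgeR being 0.00015, 1.67e-06 and 8.46e-19. In KO the 30 min falls were -0.32 ± 0.05 and -0.44 ± 0.05, and 4 h of Jurkat cells left it at 23.3, 24.3 and 23.8 CPM, above each WT library. Atg16l1 was 61.4, 62.9 and 61.0 CPM in untreated WT and 66.4, 70.2 and 65.8 CPM after 4 h of Jurkat cells (0.13 ± 0.04, and -0.28 with total-count scaling), where KO libraries were lower at 63.2, 57.8 and 61.9 CPM (log2 -0.15 ± 0.04, adjusted p = 0.00405, and 0.181 with total-count scaling). Per kilobase the ratio of Atg16l2 to Atg16l1 went from 0.357 to 0.142 in WT and from 0.365 to 0.192 in KO (means of 3 libraries), and a ratio within a library does not depend on the scaling. At 30 min Atg16l1 also set Jurkat cells apart from OVA, at 54.4 to 57.0 against 64.4 to 70.9 CPM over both genotypes (log2 -0.26 ± 0.03, adjusted p = 9.26e-09).

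The ATG4 proteases cut ATG8 precursors and release ATG8 from lipid. Atg4b, the main enzyme of LC3, read 48.1, 51.8 and 51.4 CPM in untreated WT and 56.3, 53.7 and 54.5 CPM after 4 h of Jurkat cells, a log2 change called at 0.12 ± 0.04 but at -0.28 with total-count scaling. Atg4c fell from 16.1, 15.3 and 14.9 to 8.24, 8.10 and 7.66 CPM (log2 -0.95 ± 0.07, edgeR adjusted p = 4.76e-13), while Atg4d rose from 24.8, 27.2 and 26.0 to 39.7, 34.6 and 38.1 CPM (0.53 ± 0.05, adjusted p = 3.56e-11). In exons, 23.6% of the Atg4d length lies opposite Kri1, and the library kit does not mark strand. Kri1 changed by -0.22 log2 in WT, and the part of shared reads in the Atg4d change was not tested. Atg4d was lower in KO after 30 min of Jurkat cells, at 22.1, 22.2 and 22.4 against 25.4, 25.7 and 24.1 CPM (log2 -0.17 ± 0.05, adjusted p = 0.0255), and kept this call in 1 of 6 fits without 1 library (adjusted p up to 0.115).

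The ATG8 genes diverged after 4 h of Jurkat cells. Gabarap (Entrez 56486, mm10 chr11:69991370-69994949, plus strand), the family member with the most reads per kilobase, read 288.7, 294.9 and 287.7 CPM in untreated WT and 456.7, 456.6 and 486.9 CPM after Jurkat cells, and 287.8, 308.7 and 306.3 against 432.1, 425.5 and 439.3 CPM in KO. It rose by 0.68 ± 0.04 log2 in WT (edgeR adjusted p = 1.34e-15) and by 0.52 ± 0.04 in KO, or 0.28 in WT with total-count scaling. Map1lc3b, the LC3 gene most used as an autophagosome marker, fell instead. Its WT libraries went from 80.0, 83.4 and 78.7 CPM to 69.3, 69.3 and 71.5 CPM after 4 h of OVA (log2 -0.20 ± 0.04, adjusted p = 0.000165) and to 61.6, 60.6 and 57.6 CPM after 4 h of Jurkat cells (-0.43 ± 0.04, adjusted p = 2.85e-11). KO libraries of Map1lc3b went from 78.0, 80.2 and 84.3 to 61.6, 60.0 and 64.5 CPM after Jurkat cells (-0.38 ± 0.04). The share of Gabarap in the ATG8 reads per kilobase was 76% ± 0.321 in untreated WT and 84.0% ± 0.287 after 4 h of Jurkat cells (SD, n = 3).

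Gabarapl1 and Gabarapl2 moved less. Gabarapl1 rose at 30 min in WT, from 60.9, 59.1 and 60.7 CPM to 69.7, 69.0 and 66.0 CPM after OVA (0.18 ± 0.04) and to 66.8, 65.1 and 67.0 CPM after Jurkat cells (0.14 ± 0.04), and stood at 58.5, 53.5 and 58.9 CPM after 4 h of Jurkat cells (-0.08, edgeR adjusted p = 0.0574). KO libraries were higher at that time, at 65.0, 63.1 and 65.9 CPM (KO to WT 0.18 ± 0.04, edgeR adjusted p = 0.000923). The 30 min rises of Gabarapl1 were not called in KO. In exons, 20.7% of the Gabarapl1 length lies opposite another annotated transcript, and the part of shared reads was not tested. Gabarapl2 read 17.7, 17.6 and 16.2 CPM untreated and 14.7, 15.2 and 15.4 CPM after 4 h of Jurkat cells in WT (log2 -0.18 ± 0.07, adjusted p = 0.0254). In KO it stood at 17.7, 17.6 and 14.8 against 15.9, 14.6 and 15.1 CPM, with overlap and no call (adjusted p = 0.0929).

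Map1lc3a was the member called between genotypes in the most conditions. The gene (Entrez 66734, mm10 chr2:155276364-155278073, plus strand) encodes the LC3A form of LC3. Untreated libraries read 12.3, 12.8 and 12.2 CPM in KO and 9.82, 9.40 and 10.4 CPM in WT. After OVA they read 13.5, 14.7 and 15.3 against 11.2, 11.6 and 12.4 CPM at 30 min, and 14, 13.6 and 12.8 against 11.4, 10.3 and 12 CPM at 4 h. After 4 h of Jurkat cells they read 18.2, 17.6 and 17 against 14.2, 15.8 and 15.9 CPM. In these 4 conditions each KO library was above each WT library, and the log2 differences were 0.33 ± 0.08, 0.29 ± 0.08, 0.26 ± 0.07 and 0.20 ± 0.07 (edgeR adjusted p = 0.00403, 0.0142, 0.0169 and 0.0473). After 30 min of Jurkat cells the libraries overlapped, at 10.7, 12.6 and 13.7 against 12.2, 11.7 and 10.7 CPM (0.10 ± 0.07, adjusted p = 0.46).

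The untreated difference of Map1lc3a kept its call without any 1 of the 6 libraries. The difference at OVA 30 min was lost without KO replicate 2 (edgeR adjusted p = 0.115), WT replicate 1 (0.0668) or WT replicate 2 (0.0506). That at OVA 4 h was lost without KO replicate 1 (0.0955), KO replicate 2 (0.0519) or WT replicate 2 (0.119). The difference at Jurkat 4 h was lost with DESeq2 size factors (0.0642). Its value with 1 library left out was not examined, and the 15 member calls of that comparison became 7 to 10 in those fits, whose shares of all genes are not given here. Against untreated cells, Map1lc3a rose in WT at 30 min with OVA (0.25 ± 0.08, edgeR adjusted p = 0.0357) and Jurkat cells (0.22 ± 0.08, adjusted p = 0.0319), and at 4 h with Jurkat cells (0.63 ± 0.08, adjusted p = 1.6e-08). Both 30 min calls were kept in 2 of 6 fits without 1 library, with adjusted p up to 0.165 and 0.146. In KO Map1lc3a was called in neither 30 min treatment. Per kilobase the ratio of Map1lc3a to Map1lc3b was 0.572 in untreated WT and 1.19 after 4 h of Jurkat cells.

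**Figure D3:**
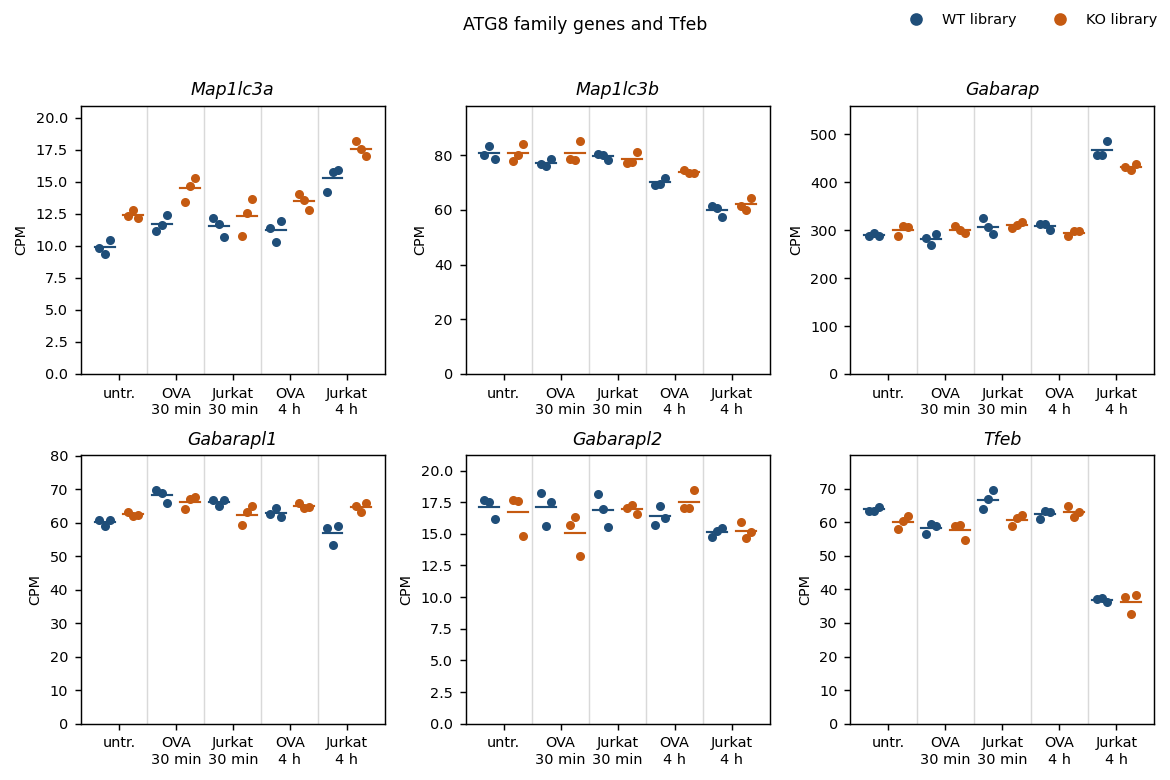
CPM of the 5 ATG8 genes and Tfeb in each library (points, with the mean of 3 as a bar) for WT and KO in 5 conditions, where untr. is untreated and axes start at 0. KO points of Map1lc3a lie above WT points in all conditions but Jurkat 30 min, Gabarap is highest after 4 h of Jurkat cells and Map1lc3b and Tfeb are lowest there.

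The cargo receptors, which tether ubiquitinated cargo to ATG8 proteins, held both the largest rises of all members and large falls. Sqstm1 (Entrez 18412, mm10 chr11:50200152-50210820, minus strand) encodes p62. Its libraries read 246.3, 242.5 and 245.5 CPM in untreated WT, 277.3, 282.8 and 275.4 after OVA for 30 min, 272.4, 288.7 and 271.7 after Jurkat cells for 30 min, 350.2, 358.6 and 336.2 after OVA for 4 h, and 2274, 2246 and 2257 after Jurkat cells for 4 h. Each treated group lay above the untreated one without overlap. The log2 changes were 0.19 ± 0.05, 0.18 ± 0.05, 0.51 ± 0.05 and 3.21 ± 0.05 (edgeR adjusted p = 0.0124, 0.006, 5.3e-09 and 2.76e-28), and the first was lost without OVA replicate 2 or untreated replicate 2 (adjusted p = 0.0548 and 0.054). KO libraries of Sqstm1 read 253.4, 247.3 and 245.2 CPM untreated and 2052, 2071 and 1992 CPM after 4 h of Jurkat cells (3.04 ± 0.05). The KO libraries were below WT there (log2 -0.15 ± 0.05, adjusted p = 0.0258) and after 4 h of OVA, at 324.1, 300.4 and 319.0 CPM (-0.15 ± 0.05, adjusted p = 0.0438). With total-count scaling neither difference was called (adjusted p = 0.311 and 0.143), and they kept their calls in 2 and 1 of 6 fits without 1 library.

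Optn (Entrez 71648, mm10 chr2:5020642-5064117, minus strand), optineurin, rose by the largest factor from a low level. WT libraries read 4.85, 4.48 and 5.02 CPM untreated, 8.10, 8.25 and 8.32 CPM after 4 h of OVA and 68.9, 81.9 and 69.5 CPM after 4 h of Jurkat cells, with no overlap between these groups. The rise was 0.78 ± 0.13 log2 with OVA (edgeR adjusted p = 6.81e-05) and 3.94 ± 0.12 with Jurkat cells (adjusted p = 1.88e-22). In KO Optn was not called after 4 h of OVA. After 30 min of Jurkat cells Optn read 4.79, 4.00 and 4.3 CPM in WT. KO libraries went from 7.31, 5.62 and 5.87 to 64.7, 63.1 and 65.4 CPM (3.36 ± 0.11). After 30 min of Jurkat cells KO was called higher by 0.55 ± 0.14 (adjusted p = 0.0128), with libraries at 8.56, 4.52 and 6.10 CPM that overlapped the WT ones. Without the KO library at 8.56 CPM no member was called in that comparison, in a fit whose share of all genes is not given here.

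Nbr1 and Calcoco1 fell. Nbr1 (Entrez 17966, mm10 chr11:101552107-101581951, plus strand), a p62 partner, read 131.9, 135.8 and 133.7 CPM in untreated WT, 105.7, 103.0 and 103.2 CPM after 30 min of Jurkat cells, 113.5, 113.0 and 116.3 CPM after 4 h of OVA and 61.4, 66.5 and 58.5 CPM after 4 h of Jurkat cells. The log2 changes were -0.36 ± 0.04, -0.23 ± 0.04 and -1.11 ± 0.04 (edgeR adjusted p = 6e-08, 7.62e-05 and 2.42e-20), all without overlap. In KO Nbr1 fell under all 4 treatments, by 1.05 ± 0.04 log2 after 4 h of Jurkat cells. Calcoco1, a receptor of endoplasmic reticulum fragments, fell from 120.6, 122.5 and 126.1 to 60.6, 64.2 and 61.2 CPM in WT (-0.99 ± 0.05). It was also lower in KO after 30 min of OVA, at 114.1, 108.6 and 122.6 against 124.2, 135.7 and 127.0 CPM (-0.17 ± 0.05, adjusted p = 0.0127), a call lost without KO replicate 2 (0.153) or WT replicate 2 (0.101). Tax1bp1, which acts with p62 and NBR1 on ubiquitin condensates, read 258.8, 252.9 and 246.9 against 258.2, 276.6 and 249.4 CPM in WT (0.05, adjusted p = 0.251). Its KO libraries were lower after 4 h of Jurkat cells, at 242.5, 230.1 and 233.5 CPM (log2 -0.15 ± 0.04, adjusted p = 0.00459, but 0.141 under total-count scaling and 0.0577 without WT replicate 2).

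The balance within the receptors also differed between groups. Per kilobase, Sqstm1 took 38.8% ± 0.243 of the reads of the 5 receptors in untreated WT and 85.5% ± 0.798 after 4 h of Jurkat cells (SD, n = 3), and 39.6% ± 0.182 and 85.2% ± 0.427 in KO. Tax1bp1 went from 34.4% to 8.5% and Nbr1 from 11.4% to 1.27% in WT. The Sqstm1 to Nbr1 ratio per kilobase was 3.39 in untreated WT, 5.65 after 4 h of OVA and 67.5 after 4 h of Jurkat cells.

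**Figure D4:**
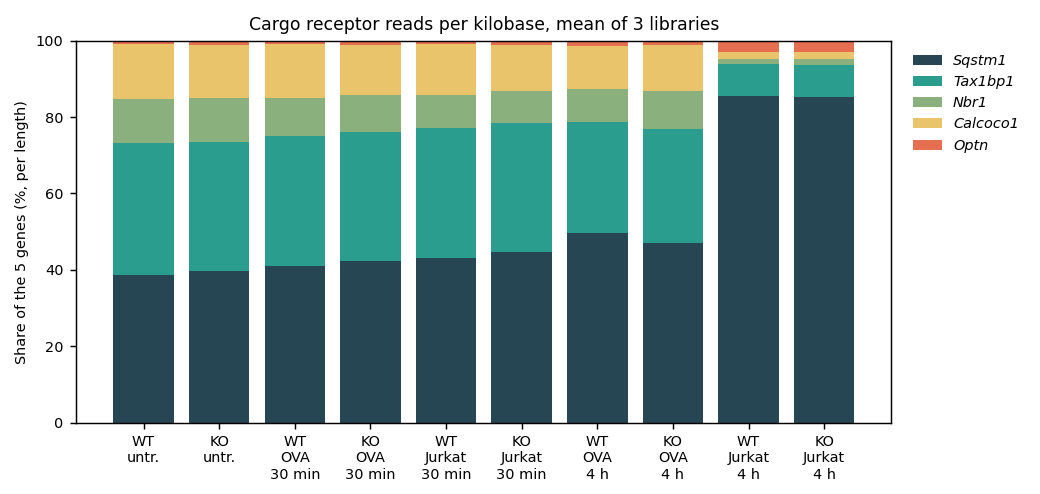
Share of each cargo receptor gene in the summed reads per kilobase of the 5 receptors, as stacked bars from 0 to 100% for the mean of 3 libraries in each of 10 groups, where untr. is untreated. The Sqstm1 share is 38.8% in untreated WT and 85.5% after 4 h of Jurkat cells.

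The response to treatment was also compared between genotypes by an interaction term. No member was called for OVA at 30 min, Jurkat cells at 30 min or OVA at 4 h by edgeR, which called 0, 0.00675 and 0.0405% of all genes. In edgeR 0, 2 and 3 members had an unadjusted p under 0.05. DESeq2 called no member in these 3 either. For Jurkat cells at 4 h edgeR called 2 members and 4.26% of all genes (1.72% higher, 2.55% lower), with 10 members at an unadjusted p under 0.05. DESeq2 called 3 members there, and its shares of all genes are not given here. Atg16l2 fell by less in KO (-0.91 ± 0.05 against -1.20 ± 0.05, difference 0.29 ± 0.07, edgeR adjusted p = 0.0198). Optn rose by less in KO (3.36 ± 0.11 against 3.94 ± 0.12, difference -0.58 ± 0.17, adjusted p = 0.0475). For 33 of the 35 members the 95% interval of the difference lay within 0.5 log2 of 0, the exceptions being Optn and Wipi1.

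**Figure D5:**
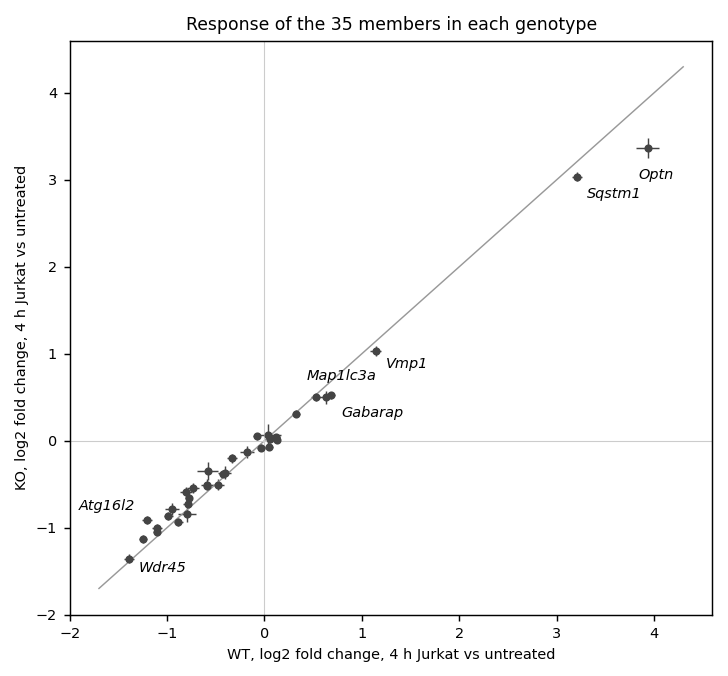
Log2 fold change of each of the 35 members after 4 h of Jurkat cells in WT (x axis) and KO (y axis), with SE bars and the line of equal change. Optn sits below the line at 3.94 and 3.36, and Atg16l2 above it at -1.20 and -0.91.

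A list of 49 further genes of the pathway gives the surroundings. After 4 h of Jurkat cells 24 rose and 24 fell in WT with TMM scaling, where 79.5% of all genes were called (38.9% higher, 40.6% lower). With total-count scaling 13 rose and 30 fell. The TMM shares are the background of the TMM counts of each of its sublists. They do not apply to the total-count ones, where the median change of all genes was -0.42 log2. Shares of all genes with that scaling are not given here. All 3 MiT/TFE relatives of Tfeb on the list rose where Tfeb fell, under each of the 3 scalings: Tfec from 3.79 ± 0.182 to 21.3 ± 0.420 CPM (log2 2.49 ± 0.11), Mitf from 14.4 ± 2.04 to 35.5 ± 3.36 CPM (1.30 ± 0.12) and Tfe3 from 81.6 ± 3.59 to 133.1 ± 1.77 CPM (0.70 ± 0.04). After 4 h of OVA all 3 rose in WT, by a median of 0.58 log2. In KO 2 rose, and Tfe3 changed by 0.10 log2 (edgeR adjusted p = 0.0732). The NADPH oxidase genes, whose oxidase is needed for LC3-associated phagocytosis, rose for 5 of 6 and fell for 1 (4 and 2 with total-count scaling), led by Cybb, its catalytic subunit (1.66 ± 0.07, edgeR adjusted p = 2.08e-19).

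Of the class III PI3K genes, which make PI3P and include the partners of Rubicon, 2 rose and 5 fell (0 and 6 with total-count scaling). Of 12 nutrient-sensing genes 3 rose and 8 fell (1 and 10 with total-count scaling), led by Deptor, an mTOR inhibitor (-4.0 ± 0.08), and Sesn1 (-1.45 ± 0.05). Bnip3l, a mitophagy receptor, fell by 1.56 ± 0.06 on the log2 scale. Of 6 lysosomal genes 5 rose and 1 fell, or 2 and 1 with total-count scaling. Between genotypes, Rubcn aside, Cybb was the gene of this list called in 3 conditions. It was lower in KO after OVA at 30 min (-0.32, edgeR adjusted p = 0.0015) and 4 h (-0.33, adjusted p = 0.00078) and after 4 h of Jurkat cells (-0.25, adjusted p = 0.00683), the last being lost without WT Jurkat 4 h replicate 2 (adjusted p = 0.087).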

How the data were processed

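RNA from FLT3L bone marrow cultures was extracted on days 6 to 7 and made into libraries with TruSeq RNA v2, per the labels' protocols. The deposited table holds raw read counts per gene for 30 libraries. The submitters' processing notes name STAR 2.5, Subread featureCounts 1.5.0-p1, DESeq2 and mm10. The sources used here do not give the annotation, the strand setting or how human reads were handled.

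Counts were fitted in edgeR 4.0.16 (R 4.3.3) with 1 model of the 10 groups, TMM scaling and the quasi-likelihood F test, after filterByExpr (minimum count 10, minimum total 15) kept 14808 genes. Benjamini-Hochberg adjustment ran over all of these, and a member was called at an adjusted p under 0.05. SE is the log2 change divided by the root of F. With 3 libraries a group, an exact permutation test of a single gene cannot go below p = 0.1. On counts simulated for KO against WT, untreated (14065 genes), 96% of genes changed by 0.5 log2 and 100% of those changed by 1 were called, with 15 false calls. The simulation gave each gene the same spread, changed only genes above 1 CPM and tried no change under 0.5 log2. It therefore does not tell how often smaller differences, or those of genes with a wider spread, would be called. Alternatives were DESeq2 1.42.0, its size factors, total-count scaling, no filter, the compared groups alone, a replicate block and each library left out. The pairing check over all genes used log2 CPM with a prior count of 2.

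Members, lists and tests were chosen with earlier results of these data known. Per-library values are given for members that were called, did not overlap and were among the 3 largest rises or falls of a comparison, for the ATG8 genes and Tfeb, and for members called in an interaction. Genes of the list of 49 are named where called between genotypes in 3 or more conditions or among the 3 largest rises or falls of WT Jurkat 4 h. Tfe3, the other levels of non-leading members and the Optn difference at Jurkat 30 min were added after their values were seen. Exon lengths and overlaps came from GENCODE vM21, and promoters from RefSeq.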

Additional observations from a re-analysis of the deposited data

Results flagged for a closer look

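After 4 h of Jurkat cells the response of 2 members differed between genotypes by the interaction test of edgeR. The fall of Atg16l2 was smaller in KO than in WT by 0.29 ± 0.07 log2 (SE, 95% interval 0.14 to 0.44, adjusted p = 0.0198), with 23.3, 24.3 and 23.8 CPM in KO against 20.4, 19 and 19 CPM in WT after treatment. This call was lost without WT Jurkat 4 h replicate 2 (0.28, adjusted p = 0.056) or WT untreated replicate 2 (0.25, adjusted p = 0.0634). The rise of Optn was smaller in KO, with a difference of -0.58 ± 0.17 log2 (95% interval -0.92 to -0.23, adjusted p = 0.0475), between untreated levels of 5.62 to 7.31 CPM in KO and 4.48 to 5.02 CPM in WT. It was lost with total-count scaling (-0.51, adjusted p = 0.0611) and in 9 of the 12 fits that left out 1 library, namely each of KO Jurkat 4 h replicates 1, 2 and 3, KO untreated replicates 1 and 3, WT Jurkat 4 h replicate 2 and WT untreated replicates 1, 2 and 3 (adjusted p 0.0503 to 0.171). After 4 h of Jurkat cells the 17 T-lineage genes summed to 188.3 to 231.2 CPM in WT and 155.4 to 179.0 CPM in KO libraries, and the 10 of them that were under 1 CPM in untreated cells to 83.2 to 110.9 and 61.9 to 79.5 CPM. Their part in either difference was not tested.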

How the results depend on the processing

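The 62 values of single genes are the leading called changes of members, the interaction calls and the named genes of the list of 49. They had 850 values under the alternatives, of which none changed direction. All 62 were chosen as called, so this says little of the other values. Over all 35 members, total-count scaling reversed the sign of 6 changes for Jurkat 4 h in WT. For KO to WT at Jurkat 4 h it reversed 5. In 83 of the 850 the call was lost, 62 times with 1 library left out, and 43 of the 62 kept their call under each alternative run. Counts of members called between KO and WT moved as follows. Shares of all genes called in the same fits are not given for these counts or for those against untreated below. A smaller count may therefore not be particular to the members. In untreated cells the 2 calls became 1 with DESeq2 size factors, 1 without the 6 libraries of 4 h Jurkat cells (an alternative chosen after seeing the data), and 1 to 1 with a library left out. At OVA 30 min the 2 calls ran from 0 (without KO replicate 2 or WT replicate 2) to 3. At Jurkat 30 min the 3 calls became 1 with total-count scaling, 0 with the compared groups alone, and 0 to 2 with a library left out (0 without KO replicate 1 or WT replicate 2, 1 without KO replicate 3). At OVA 4 h the 2 calls became 5 with total-count scaling and 0 to 3 with a library left out (0 without KO replicate 1, KO replicate 2 or WT replicate 2, 1 without KO replicate 3 or WT replicate 1). At Jurkat 4 h the 15 calls became 7 with the compared groups alone and 7 to 10 with a library left out, with 8 without KO replicate 3 and 9, 7 and 7 without WT replicates 1, 2 and 3.

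Against untreated, the 5 calls of OVA 30 min in WT ran from 3 (without OVA replicate 2 or untreated replicate 2) to 5. The 16 calls of Jurkat 30 min in WT became 10 with the compared groups alone and 10 (without Jurkat replicate 1) to 15. In KO the 4 calls of OVA 30 min became 1 with the compared groups alone and 1 to 5 (1 without OVA replicate 2, 2 without OVA replicate 3 or untreated replicate 1), the 10 of Jurkat 30 min became 6 and 6 (without Jurkat replicate 1) to 12, and the 10 of OVA 4 h ran from 5 (without untreated replicate 3) to 9, with 6 without OVA replicate 2. The 2 calls of the genotype difference at Jurkat 4 h ran from 0 (without WT Jurkat 4 h replicate 2 or WT untreated replicate 2) to 2. With the replicate number as a block the counts were 2, 2, 2, 3 and 13 between KO and WT in the order above, and no count moved by over 1.5 times. Same-numbered libraries deviated together in every pair for KO to WT untreated (correlations 0.40, 0.26 and 0.20) and for Jurkat 30 min in WT (0.28, 0.12 and 0.28), but the labels do not tie the numbers to mice or days. The members with the lowest levels before treatment were Optn, Wipi1, Atg10 and Atg4a, under 10 CPM, and Map1lc3a, at 9.40 to 10.4 CPM in untreated WT. The part of depth in the spread of their libraries was not tested.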
